A study of Cavia porcellus with 35 samples.

Results

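The genes described here encode the collagens, the laminins and the integrins, that is, the chains of 2 families of extracellular matrix proteins and of the receptors with which cells hold on to them. They were taken by name from the first column of 4 count tables. Every symbol formed by COL and a digit, by LAMA, LAMB or LAMC and a digit, or starting with ITGA or ITGB was taken, except ITGAM and ITGB2, which mark microglia. This gave 70 of the 12100 symbols listed in any table. There were 35 collagen genes (11 of fibrillar collagens, 8 of fibril-associated collagens, 6 of type IV collagen and 10 others), 11 laminin genes and 21 integrin genes (15 alpha and 6 beta chains). The name rule also took 3 genes that encode no such chain. These were COL4A3BP, which encodes a ceramide transfer protein, ITGB1BP1, whose product binds the tail of an integrin beta chain, and ITGBL1, which encodes a secreted integrin beta-like protein.

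The samples were punches of prefrontal cortex from 35 juvenile guinea pigs (Cavia porcellus) at postnatal day 40, with 1 RNA library per animal. Pregnant F0 guinea pigs had received betamethasone, a synthetic glucocorticoid, or saline, and their offspring are labelled Beta and Control. The F1 Beta animals were exposed in the womb, and the F2 and F3 animals descended through the fathers from F1 males of the Beta or the Control line, mated in each generation with females outside the experiment. There were 4 Control and 4 Beta females in each of the F1, F2 and F3 generations and 5 Control and 6 Beta F1 males. No genetic modification, and no treatment shared by Control and Beta animals, is named. The animals were a subset of a larger cohort, chosen on the amount and quality of their RNA. For the females, per the study's methods, no litter gave more than 1 animal of a sex, while the litter of each library is not given in the labels, and the p-values measure the spread between these animals only. In bulk tissue, fewer cells of a type and less RNA per cell cannot be told apart.

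Collagens are triple helices of 3 chains. In the brain they lie mainly in the basement membrane around vessels, where type IV collagen forms a network, and in the meninges, which hold fibrillar collagen, while a few transmembrane collagens are made by neurons. Laminins are trimers of an alpha, a beta and a gamma chain and form the second network of the basement membrane. An integrin is a pair of an alpha and a beta chain that spans the cell membrane, binds matrix outside and the cytoskeleton inside, and, in some pairs, releases growth factors stored in the matrix. In the brain such pairs sit on endothelium, astrocyte endfeet, oligodendrocytes, microglia and neurons.

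Libraries held 12819964 to 31763585 reads assigned to genes, with the F1 males deepest at 25697953 or more, and the totals did not differ between Control and Beta animals within a table (exact two-sided permutation tests, p = 0.943, 0.429, 0.686 and 0.359 in F1, F2 and F3 females and F1 males, with 4 or more animals per group). The source label names the prefrontal cortex, while the label on extraction names the paraventricular nucleus of the hypothalamus. Summed over the 10 or 11 markers listed of 12, cortical excitatory neuron genes reached 2720 to 8220 CPM in every animal, CPM being read counts scaled to a common library total. The markers of the paraventricular hypothalamus summed to 12.4 to 26.7 CPM, with TRH and OTP not listed in any table. The F1 female libraries stood apart from each other in 2 ways. Striatal neuron markers (8 of 10 listed) summed to 2710, 594, 923 and 2569 CPM in F1 female Controls 1 to 4 and to 249 to 628 CPM in the F1 female Beta animals. Oligodendrocyte markers (14 of 16 listed, with MBP and MOBP not listed) summed to 5192, 17220, 11110 and 8688 CPM in the same Controls and to 4139 to 8154 CPM in the Beta animals. The counts in F1 females are therefore also given without Controls 1 and 4 and without Controls 2 and 3, a choice made after the data were seen.

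Between 60 and 66 members were listed per table, 57 of them in all 4. After removal of genes with low counts, 58 members could be tested in F1 females, 60 in F2 females, 65 in F3 females and 64 in F1 males. Each table was tested on its own for a difference of Beta from Control animals, with edgeR's quasi-likelihood test over all its genes and Benjamini-Hochberg adjusted p-values (FDR). A member is said to differ, or to be called, at an FDR under 0.05. Differences are given on the log2 scale as Beta minus Control, on which 1 is a doubling, with their standard error (SE). Levels are CPM after TMM scaling of the library sizes, and since transcript lengths were not used, levels were compared between animals and not between genes. COL5A3, COL8A1, COL9A3 and LAMA2 are on a gene list that the study drew from these same animals, so that what follows about them is not independent evidence of their direction.

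In F1 females, 14 of the 58 members differed between Beta and Control animals, 6 of them higher and 8 lower in Beta. That is 24.1% of the members, where 16.5% of all genes tested were called, 9.21% higher and 7.33% lower. Without the 3 genes that encode no such chain, 12 of 55 were called (21.8%), 4 higher and 8 lower. An unadjusted p under 0.05 was found for 24 members, beside 34.2% of all genes. With edgeR's likelihood ratio test 20 members were called, 7 higher and 13 lower, where 18.6% of all genes were. With DESeq2 19 were called, 7 higher and 12 lower, where 21.5% of all genes were. The lower members came from each family of chains. They were the integrin chains ITGAV, ITGB5 and ITGA6, the laminin chains LAMC1 and LAMA2, and the collagen chains COL4A1, COL9A1 and COL11A1. The higher members were COL8A1, COL6A6, COL25A1 and ITGA8, together with COL4A3BP and ITGBL1. The median log2 difference was -0.24 over the members and -0.03 over all genes tested, and 40 of the 58 members had a negative value. For 15 members the Control and Beta animals did not overlap, 5 higher and 10 lower in Beta, while 23.2% of all genes tested showed no overlap.

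**Figure D1:**
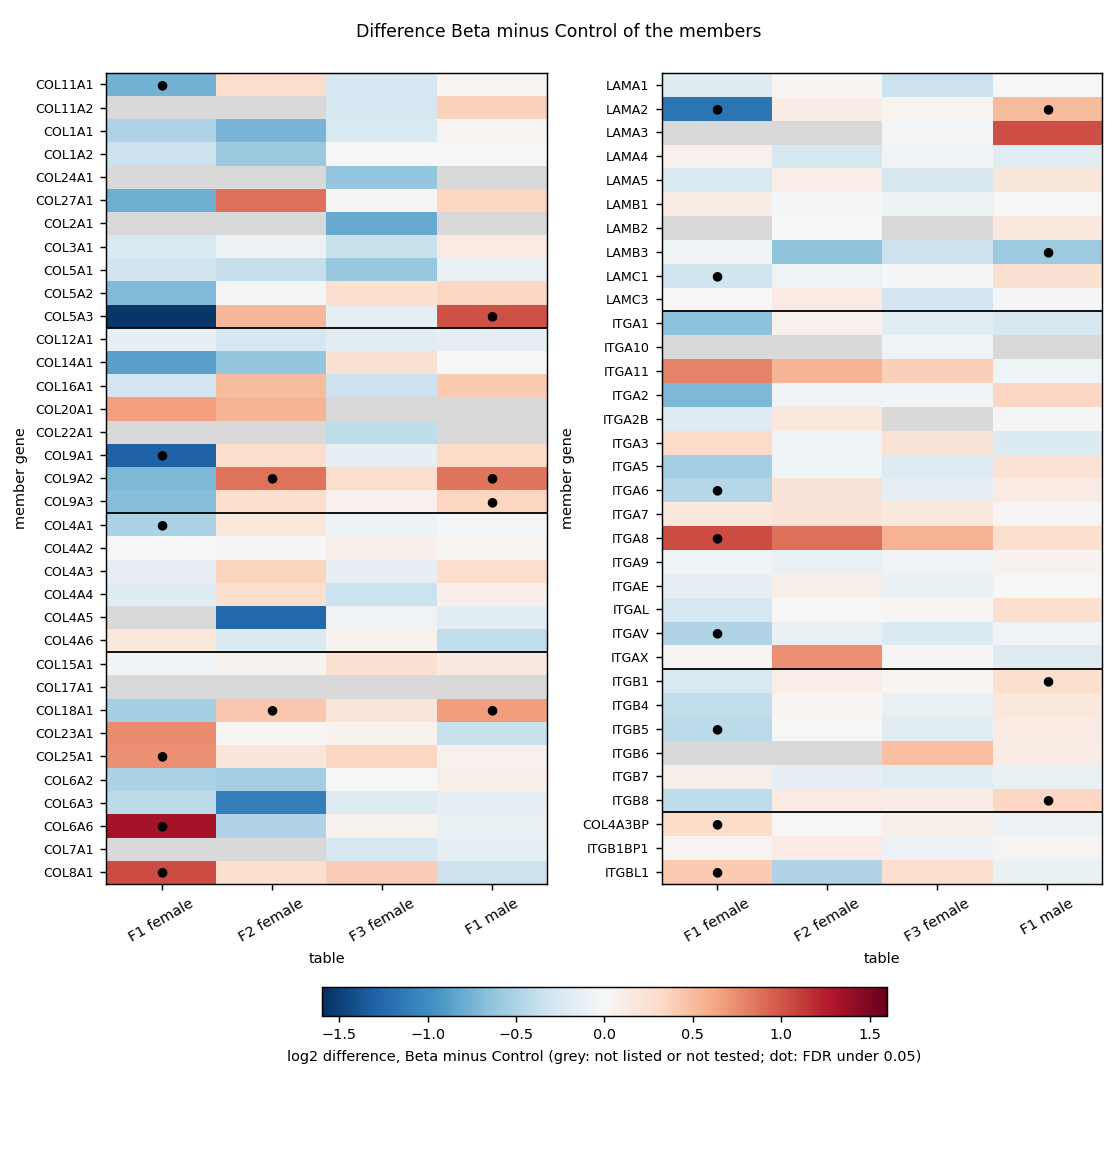
Log2 difference between Beta and Control animals of 69 of the 70 members (rows, in order of family and separated by lines) in the 4 tables (columns), with red for higher and blue for lower in Beta, grey where a member was not listed or not tested, and a dot where the FDR was under 0.05. F1 females carry 14 dots, F1 males 8, F2 females 2 and F3 females 0, and COL9A2 and COL18A1 are red with a dot in both F2 females and F1 males but blue in F1 females.

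The plot of all members by table shows the F1 female column as the one with the darkest blue and red cells. The fibrillar collagens, which form the banded fibers of connective tissue, had negative values for all 8 members tested there (median log2 difference -0.60), but only COL11A1 among them was called. COL11A1, a minor fibrillar chain that helps to set fiber diameter, was at 5.31, 10.9, 8.82 and 8.28 CPM in Controls 1 to 4 and at 4.75, 5.17, 4.22 and 5.53 CPM in Beta animals 1 to 4 (log2 difference -0.75, SE 0.21, FDR = 0.0425). Its groups overlapped by the position of Control 1 alone. The type V chains COL5A2 and COL5A3, partners of type I collagen in mixed fibers, had log2 differences of -0.70 (FDR = 0.0590) and -1.56 (FDR = 0.0689). Each passed in 3 of 8 alternative settings of test, scaling, filter or model. COL5A3 was at 4.79, 21.5, 10.02 and 4.53 CPM in Controls and at 3.91, 4.82, 2.56 and 2.52 CPM in Beta animals, so that Controls 2 and 3 were high and Controls 1 and 4 lay within the Beta range. The chains of the main fibrillar collagens had log2 differences of -0.49 for COL1A1 (FDR = 0.210), -0.34 for COL1A2 (FDR = 0.327) and -0.25 for COL3A1 (FDR = 0.282).

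Type IX collagen, which sits on the surface of fibers, is a trimer of COL9A1, COL9A2 and COL9A3. COL9A1 was lower in F1 female Beta animals, at 2.99, 1.93, 1.80 and 3.22 CPM against 5.66, 8.65, 5.28 and 4.86 CPM in Controls (log2 difference -1.29, SE 0.26, FDR = 0.0152). Every Beta animal lay under every Control, on 26 to 125 reads per animal, and the call held in all 8 fits that left out 1 animal. The other type IX chains had values of the same sign that did not pass, -0.72 for COL9A2 (FDR = 0.187) and -0.68 for COL9A3 (FDR = 0.0743). COL9A3 passed in 3 of 8 alternative settings. For COL9A2, Controls 2, 3 and 4 were at 74.3, 48.4 and 34.4 CPM, above the Beta animals (17.7 to 33.9 CPM), whereas Control 1 was at 20.9 CPM and within their range.

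COL4A1 and COL4A2 encode the chains of the common type IV trimer of vessel basement membranes, and their genes lie head to head in mammalian genomes. COL4A1 was lower in Beta animals, at 31.0, 22.7, 32.6 and 27.3 CPM against 40.1, 48.1, 39.8 and 33.1 CPM (log2 difference -0.50, SE 0.14, FDR = 0.0395), with no overlap but with Control 4 only just above the highest Beta animal. COL4A2 was at 52.6 ± 4.54 CPM in Controls and 53.0 ± 6.70 CPM in Beta animals (SD, n = 4 each), with a log2 difference of 0.01 (SE 0.10, FDR = 0.958). The pair of chains thus had unequal differences in these animals, although the difference between the genes was not tested.

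Among the other collagens, COL8A1 had the smallest FDR. It encodes a short network-forming collagen made by endothelium and smooth muscle of vessels. It was at 11.8, 11.97, 8.62 and 7.69 CPM in Controls and at 22.2, 18.5, 18.3 and 23.9 CPM in Beta animals (log2 difference 1.05, SE 0.16, FDR = 0.00668). All Beta animals lay above all Controls, and the call held in all 8 fits that left out 1 animal and without Controls 2 and 3 (FDR = 0.0384). COL6A6, a chain of the beaded type VI filaments, was higher on few reads (8 to 36 per animal), at 0.700, 0.623, 0.535 and 0.723 CPM in Controls and 1.89, 0.827, 1.32 and 2.52 CPM in Beta animals (log2 difference 1.33, SE 0.35, FDR = 0.0354). COL25A1, a transmembrane collagen of neurons, was at 38.8, 22.8, 22.7 and 28.4 CPM in Controls and 48.7, 42.6, 38.5 and 58.2 CPM in Beta animals (log2 difference 0.74, SE 0.19, FDR = 0.0333), and only Control 1 and Beta 3 overlapped. COL18A1, a vessel basement membrane collagen from which endostatin is cut, had a log2 difference of -0.54 that did not pass (FDR = 0.126), with Controls spread from 36.5 to 83.8 CPM.

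Of the laminins, LAMC1, the gamma chain that most laminin trimers share, was lower in F1 female Beta animals. It was at 59.8, 69.0, 60.5 and 55.6 CPM in Controls and at 45.0, 51.0, 50.3 and 50.8 CPM in Beta animals (log2 difference -0.31, SE 0.08, FDR = 0.0287), with no overlap. LAMA2, the alpha chain of the laminin of muscle and brain vessels whose loss causes a muscular dystrophy with white matter changes, was at 44.1, 77.4, 62.4 and 35.5 CPM in Controls and 14.3, 33.0, 34.3 and 15.8 CPM in Beta animals (log2 difference -1.17, SE 0.34, FDR = 0.0480). Its groups did not overlap but were separated by little, and the call held in 1 of the 8 fits that left out 1 animal. The beta chain LAMB1 was at 131 ± 13.6 CPM and 142 ± 16.8 CPM (log2 difference 0.12, FDR = 0.425).

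Among the integrins, ITGAV and ITGB5 had the smallest FDRs. ITGAV pairs with several beta chains to bind matrix proteins such as vitronectin, and it was lower in every Beta animal, at 331, 375, 343 and 350.2 CPM against 484, 511, 485 and 466 CPM in Controls (log2 difference -0.48, SE 0.06, FDR = 0.00390). ITGB5, one of its partners, was at 132, 128, 121 and 116 CPM in Controls and at 88.4, 92.6, 96.0 and 94.4 CPM in Beta animals (log2 difference -0.42, SE 0.06, FDR = 0.00428). Both differences were larger than the spread within either group, held in all 8 fits that left out 1 animal, and remained called without Controls 2 and 3 (FDR = 0.0293 for ITGAV and 0.0398 for ITGB5). ITGB8, another partner of ITGAV, with which it activates latent TGF-beta, ranged from 73.4 to 159 CPM in Controls and from 65.3 to 108 CPM in Beta animals (log2 difference -0.40, FDR = 0.251).

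ITGA6, an alpha chain of laminin receptors, was lower in Beta animals, at 43.8, 37.8, 41.7 and 38.4 CPM against 47.2, 64.3, 58.7 and 52.2 CPM (log2 difference -0.46, SE 0.10, FDR = 0.0201), without overlap. Its usual partner ITGB1, the beta chain shared by most matrix-binding integrins, had a smaller difference that just missed the threshold (log2 -0.24, SE 0.07, FDR = 0.0531), although every Beta animal (92.7 to 99.1 CPM) lay under every Control (103 to 127 CPM). The fibronectin receptor chain ITGA5 was likewise without overlap and not called (log2 -0.55, FDR = 0.0734). ITGA8, whose pair with ITGB1 binds nephronectin, was higher, at 5.92, 8.34, 7.27 and 10.1 CPM in Beta animals and 5.89, 2.77, 2.87 and 3.75 CPM in Controls (log2 difference 1.04, SE 0.27, FDR = 0.0324), Control 1 lying just under the lowest Beta animal. Of the genes that share only their names with these families, COL4A3BP (log2 0.30, FDR = 0.0133) and ITGBL1 (log2 0.42, FDR = 0.0173) were higher in Beta animals without overlap.

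**Figure D2:**
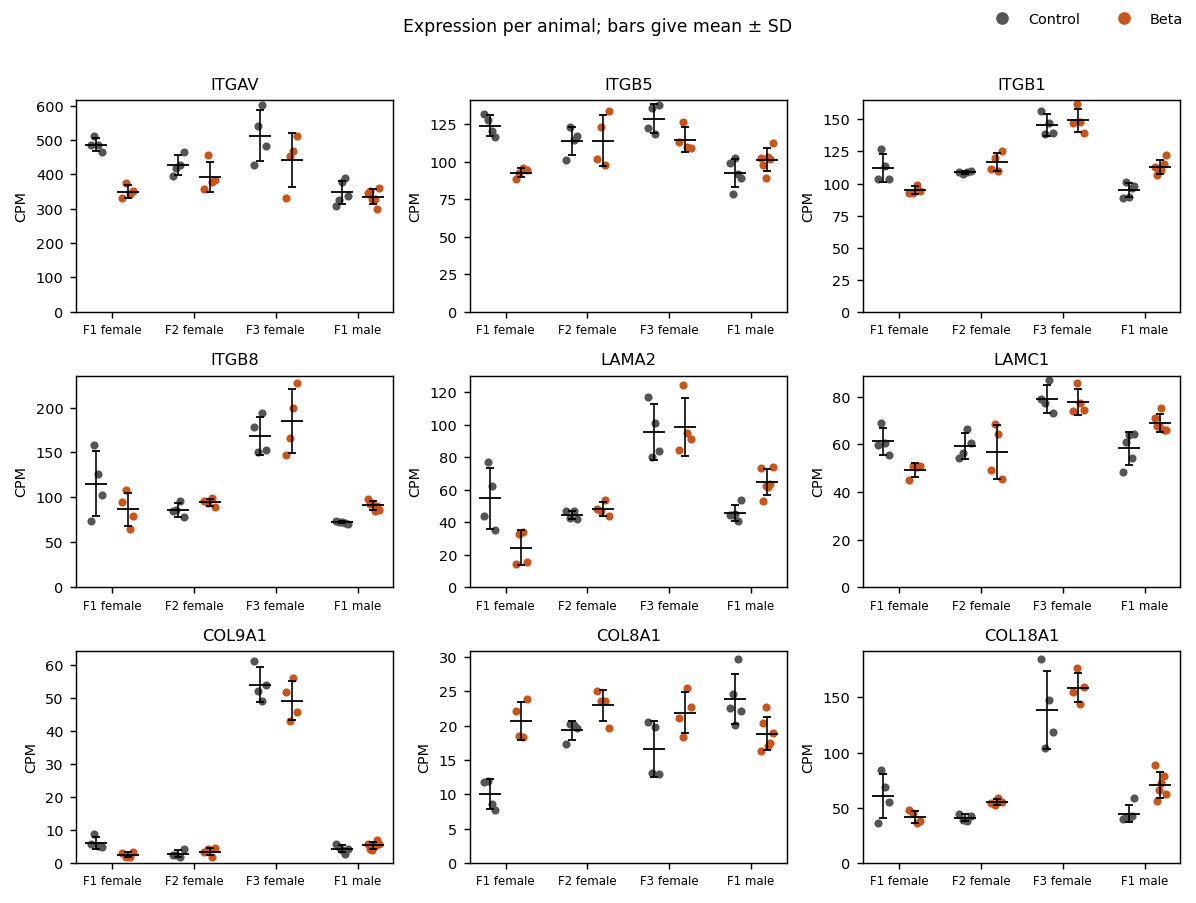
CPM (linear axes from 0) of 9 members in each animal of the 4 tables, with Control animals in grey and Beta animals in orange and bars at the mean ± SD of each group. ITGAV, ITGB5, LAMC1, LAMA2 and COL9A1 lie lower and COL8A1 lies higher in F1 female Beta animals with no overlap, whereas in F1 males ITGB1, ITGB8 and LAMC1 lie higher in Beta without overlap, and COL9A1 is at 49.0 to 61.1 CPM in F3 Controls and under 9 CPM in the other tables.

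Most of the F1 female calls depended on single libraries. The plot of CPM per animal shows a wide spread of the Controls for LAMA2, and also for ITGB8 and COL18A1, which were not called. Between 6 and 16 members were called when 1 animal was left out, with 6 called without Control 3 or without Beta 4, 7 without Beta 1 and 8 without Control 2. Over all genes these 4 fits called 5.42%, 9.81%, 7.32% and 10.8%, so that the calls of the members fell along with those of the whole table. ITGAV, ITGB5, COL8A1, COL9A1 and COL4A3BP were called in all 8 such fits, ITGBL1 in 7 and ITGA6 in 6. COL25A1 and LAMC1 were called in 3, COL4A1, COL6A6 and ITGA8 in 2, and COL11A1 and LAMA2 in 1. Without Controls 1 and 4, which had the highest striatal sums, 19 members were called, 13 of them among the 14, while 15.1% of all genes were called. Without Controls 2 and 3, which had the highest oligodendrocyte sums, 4 members were called, and the 3 shared with the 14 were ITGAV, ITGB5 and COL8A1, while 3.52% of all genes were called.

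Several marker lists moved with the F1 female comparison. Cortical excitatory neuron markers summed to 5144, 3086, 3019 and 3311 CPM in Controls and to 5047, 4232, 5531 and 8222 CPM in Beta animals, overlapping through Control 1, with a median log2 difference of 0.38 and 0 of 11 called. Control 1 was also the highest Control, and Beta 4 the highest animal, for the neuronal COL25A1. Microglia markers were lower in Beta animals for 6 of the 8 tested, and summed to 204 to 228 CPM in Beta animals and to 275 to 331 CPM in Controls, with C1QA, C1QC and ITGAM not listed. Striatal markers were lower for 5 of 8, astrocyte markers for 4 of 9 (sums of 6740 to 7670 CPM in Controls and 6370 to 7000 CPM in Beta animals) and inhibitory neuron markers for 3 of 9 (828 to 1190 and 697 to 926 CPM). Markers of meningeal and perivascular fibroblasts, cells that make fibrillar collagen, summed to 101 to 130 CPM in Controls and 80.6 to 91.4 CPM in Beta animals without overlap, with 1 of 8 called lower and FOXC1, FOXD1 and ALDH1A2 not listed. Their list also holds PDGFRA, which is not made by fibroblasts alone, so that the sum cannot be ascribed to these cells. The sums for pericytes and smooth muscle were 293 to 320 and 240 to 294 CPM (0 of 9 called), and those for endothelium 544 to 632 and 466 to 619 CPM (1 of 11 lower). Among oligodendrocyte markers 0 of 14 were called, but the order of the Controls by their sum, with Control 2 highest and then 3, 4 and 1, was also their order by CPM of some members. These included COL9A2, COL18A1 and ITGB8, which were not called, and COL11A1 and ITGA6, which were called lower. The other members called lower, ITGAV, ITGB5, LAMC1, LAMA2, COL4A1 and COL9A1, did not follow this order. The part of these cells in the differences of the members was not tested.

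F1 males gave fewer calls, and all but 1 of them were higher in Beta animals. Of 64 members tested, 8 differed, 7 higher and 1 lower, which is 12.5% of the members where 9.22% of all genes tested were called (5.74% higher and 3.48% lower). An unadjusted p under 0.05 was found for 14 members, beside 25.2% of all genes. With edgeR's likelihood ratio test and with DESeq2, 10 members were called, 8 higher and 2 lower, beside 12.2% and 13.8% of all genes. The higher members were ITGB8, ITGB1, LAMA2, COL18A1, COL9A2, COL9A3 and COL5A3, and the lower one was LAMB3. The median log2 difference was 0.05 over the members and 0.00 over all genes. In 5 members the groups did not overlap (COL5A3, ITGB1, ITGB8 and LAMC1 higher, LAMB3 lower), beside 6.26% of all genes (4.22% above and 2.04% below). Between 7 and 10 members were called when 1 animal was left out, and each of the 8 held in all 11 fits except COL9A3, which held in 8.

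ITGB8 was at 74.0, 72.4, 73.1, 72.0 and 70.6 CPM in the 5 male Controls, and in the 6 Beta males it ran from 85.2 to 98.5 CPM with a median of 91.6 CPM (log2 difference 0.33, SE 0.04, FDR = 0.00303). The Controls lay close together, and the lowest Beta male was above all of them by more than their whole range. ITGB1 was at 89.0, 101, 89.5, 96.3 and 98.01 CPM in Controls and at 107 to 122 CPM (median 112) in Beta males (log2 difference 0.25, SE 0.05, FDR = 0.00648), again without overlap. ITGAV, the alpha chain that pairs with ITGB8, had a log2 difference of -0.05 (FDR = 0.694).

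LAMA2 was at 44.5, 44.8, 44.9, 40.6 and 53.8 CPM in male Controls and at 53.0 to 74.3 CPM (median 62.7) in Beta males (log2 difference 0.50, SE 0.09, FDR = 0.00593), and only Control 5 reached into the Beta range. LAMC1 had a log2 difference of 0.24 that just missed the threshold (FDR = 0.0510), without overlap of its groups. It passed in 5 of 8 alternative settings. LAMB3, a beta chain of the laminin that anchors epithelia, was lower, at 4.76, 4.67, 6.5, 6.73 and 5.98 CPM in Controls and 3.22 to 4.67 CPM (median 3.79) in Beta males (log2 difference -0.58, SE 0.13, FDR = 0.0147). Its highest Beta male and lowest Control nearly met.

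Of the collagens, COL18A1 was at 40.2, 41.6, 40.9, 42.6 and 58.6 CPM in male Controls and at 56.5 to 89.2 CPM (median 69.4) in Beta males (log2 difference 0.66, SE 0.12, FDR = 0.00684). Control 5 stood apart from the other Controls and overlapped the Beta males. COL9A2 was at 34.9, 34.9, 24.1, 24.2 and 43.8 CPM in Controls and 39.8 to 74.4 CPM (median 57.0) in Beta males (log2 difference 0.85, SE 0.17, FDR = 0.0102). COL9A3, at 58.9 to 73.2 CPM in Controls and 70.8 to 96.9 CPM in Beta males, was also higher (log2 difference 0.34, SE 0.08, FDR = 0.0225), whereas COL9A1 was at 4.35 ± 1.11 and 5.33 ± 1.05 CPM (log2 difference 0.29, FDR = 0.337). COL5A3 was at 7.21, 6.64, 4.10, 2.72 and 6.52 CPM in Controls and at 7.76 to 12.5 CPM (median 11.7) in Beta males (log2 difference 1.02, SE 0.22, FDR = 0.0126), with no overlap. COL8A1, which was higher in F1 female Beta animals, had a negative value in males that did not pass (log2 difference -0.34, FDR = 0.0607). In 2 of 8 alternative settings it passed.

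In F1 males the oligodendrocyte markers moved with these members. All 14 listed markers of 16 were called higher in Beta males, and they summed to 4044 to 7475 CPM in Controls and 8376 to 14100 CPM in Beta males, without overlap. Control 5, the high Control for COL18A1, COL9A2 and LAMA2, had the highest of the Control sums. Among the other members called higher, Control 5 was the lowest Control for ITGB8 (70.6 CPM). For ITGB1, COL9A3 and COL5A3 it was not the highest Control. Beside them, 1 of 8 astrocyte and 1 of 9 microglia markers were higher and 2 of 9 inhibitory neuron markers lower, while 0 of the endothelial, pericyte and smooth muscle, meningeal and striatal markers were called. The part of oligodendrocytes in these differences was not tested.

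**Figure D3:**
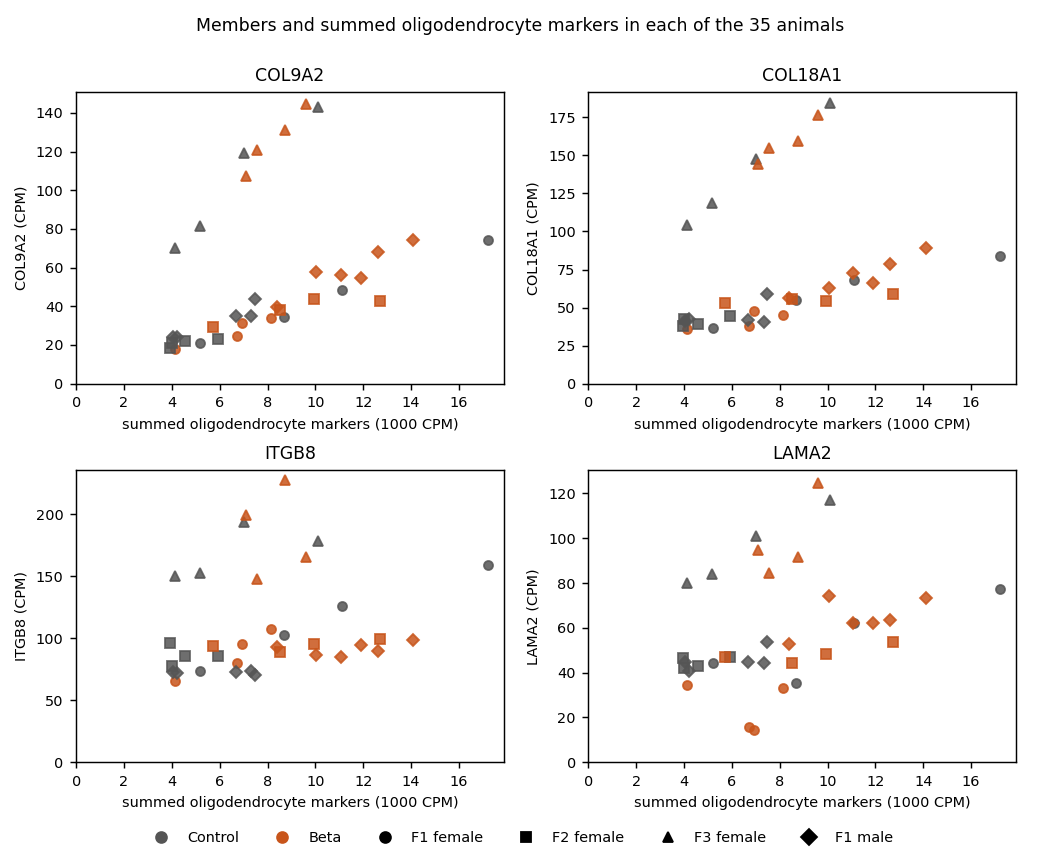
CPM of COL9A2, COL18A1, ITGB8 and LAMA2 (vertical axes) against the summed CPM of 13 or 14 oligodendrocyte markers (horizontal axes) in each of the 35 animals, with Control in grey, Beta in orange and a symbol for each table. COL9A2 is lowest in the animal with the lowest sum in each table, with the F3 females above all other animals for COL18A1 (104 to 184 CPM), while 2 F1 female Beta animals lie lowest for LAMA2 at 14.3 and 15.8 CPM.

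The plot of members against oligodendrocyte sums is a description over animals that share tables and treatments, and no correlation was computed. F1 female Control 2, with the highest sum of all animals (17220 CPM), was also the F1 female with the most COL9A2 (74.3 CPM), COL18A1 (83.8 CPM), ITGB8 (159 CPM) and LAMA2 (77.4 CPM).

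The response of F1 females and F1 males was compared directly, by a test of the difference between the Beta effects of both sexes in a joint fit. For 21 of 59 members the response differed (35.6%, where 31.7% of all genes did), and 29 had an unadjusted p under 0.05, beside 42.2% of all genes. In 19 of these the sign was opposite, with 14 negative in females and positive in males and 5 the other way, and over all genes that differed the sign was opposite in 92.3%. With 1 animal left out the number was 19 to 23, it was 15 without F1 female Controls 2 and 3, all of them among the 21, and 24 without Controls 1 and 4. The largest differences, as male minus female effect, were those of COL5A3 (log2 2.56, FDR = 0.00186), LAMA2 (1.66, FDR = 0.00107), COL9A1 (1.58, FDR = 0.00143) and COL9A2 (1.56, FDR = 0.00575). All type IX chains were among the 21, as were COL18A1 (1.19, FDR = 0.00198), COL5A2 (1.03, FDR = 0.00547) and the basement membrane chain LAMC1 (0.55, FDR = 0.00126). Of the integrins, ITGB1 (0.49, FDR = 0.000294), ITGB5 (0.54, FDR = 0.000617), ITGB8 (0.72, FDR = 0.0153), ITGA5 (0.77, FDR = 0.00712) and ITGA6 (0.58, FDR = 0.0273) were negative in females and positive in males. COL8A1 differed most clearly in the other direction (log2 -1.39, SE 0.20, FDR = 9.5e-05), with COL6A6 (-1.45, FDR = 0.00811), COL23A1 (-1.12, FDR = 0.0102) and ITGA3 (-0.54, FDR = 0.0225). ITGAV (0.42, FDR = 0.00271) and COL25A1 (-0.68, FDR = 0.0290) differed in size while keeping their sign in both sexes.

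**Figure D4:**
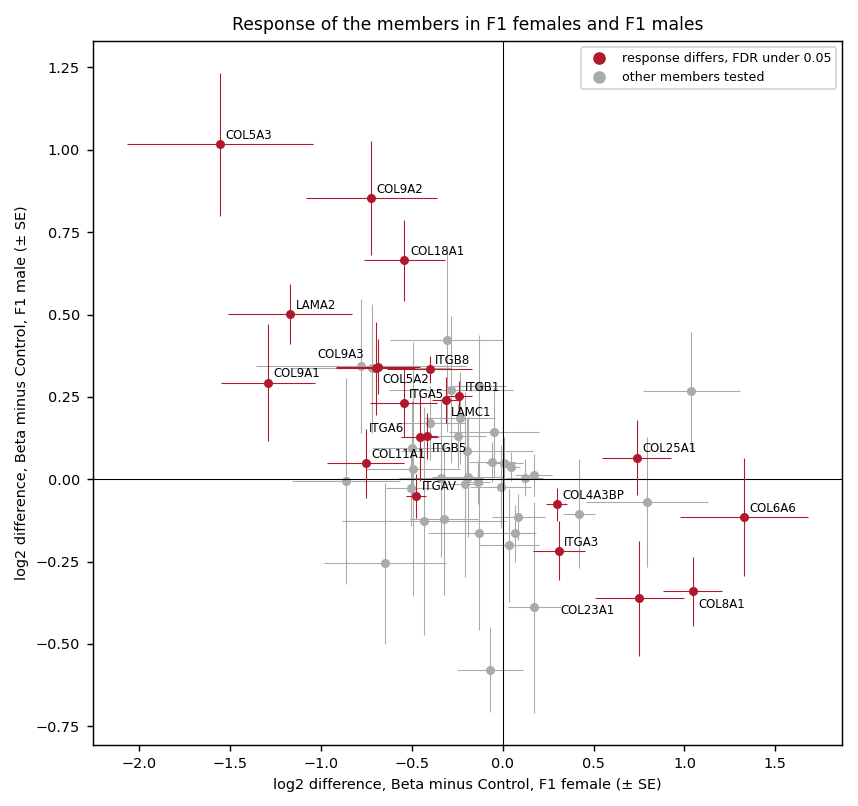
Log2 difference between Beta and Control animals in F1 females (horizontal axis) and F1 males (vertical axis) for 57 of the 59 members in the joint fit, namely those tested in both tables,, with bars for ± SE and red for the 21 members whose response differed between the sexes at an FDR under 0.05. Of the red points, 14 lie at the upper left, with negative values in females and positive ones in males, and 5 at the lower right.

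The plot of both F1 responses places COL5A3, COL9A2, COL18A1 and LAMA2 far into the upper left, with a negative value in females and a called positive one in males. Since the male libraries held more reads than the female ones and came in a separate table, sex and table cannot be told apart, but a constant offset of a table drops out of this test.

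In F2 females, 2 of 60 members were called, COL9A2 and COL18A1, both higher in Beta animals. That is 3.33% of the members, where 0.278% of all genes were called (0.153% higher), and with upper-quartile scaling 3 members were called, 2 higher and 1 lower. COL9A2 was at 23.3, 22.1, 18.3 and 20.8 CPM in Controls and at 43.9, 29.2, 42.9 and 38.2 CPM in Beta animals (log2 difference 0.87, SE 0.13, FDR = 0.0443). COL18A1 was at 44.7, 39.1, 38.0 and 42.7 CPM and at 54.5, 52.9, 59.1 and 55.5 CPM (log2 difference 0.43, SE 0.07, FDR = 0.0443). Neither gene overlapped between the groups. Both calls were lost when Control 2, Control 3, Control 4, Beta 1, Beta 3 or Beta 4 was left out, in fits that called 0 of all genes, or 7 without Beta 4. The log2 differences stayed at 0.80 to 0.98 for COL9A2 and 0.39 to 0.47 for COL18A1 over all 8 such fits. Without Beta 2, 7 members and 4.36% of all genes were called, and without Control 1, 5 members and 2.19%. The oligodendrocyte markers summed to 5933, 4566, 3936 and 3997 CPM in F2 Controls and to 9929, 5707, 12720 and 8511 CPM in Beta animals, with a median log2 difference of 0.90 and 0 of 14 called. Their part in these 2 calls was not tested.

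A further 16 F2 members had an unadjusted p under 0.05 without being called (18 of 60 in all, 10 with positive and 8 with negative values, where 16.1% of all genes had one, 8.72% positive and 7.35% negative). Every Beta animal lay above every Control for 8 members (4.08% of all genes) and below for 3 (4.02%), 11 in all beside 8.09% of all genes. The 8 were COL9A2, COL18A1 and the integrin chains ITGA2B, ITGA6, ITGA7, ITGA8, ITGAX and ITGB1. ITGAX, an alpha chain of leukocytes and microglia, was at 12.03, 10.4, 9.78 and 9.46 CPM in Controls and 15.5, 14.0, 22.7 and 17.1 CPM in Beta animals (log2 difference 0.74, FDR = 0.0556). ITGA8 was at 3.68 ± 0.736 and 6.77 ± 1.46 CPM (log2 difference 0.88, FDR = 0.0636). The largest negative values were those of COL4A5 (log2 -1.25, FDR = 0.148), a type IV chain, COL6A3 (-1.09, FDR = 0.0506), a chain of type VI collagen, and COL1A1 (-0.75, FDR = 0.162). COL6A3 was at 2.35, 3.45, 2.90 and 2.94 CPM in Controls and 1.18, 1.46, 1.25 and 1.58 CPM in Beta animals, without overlap. With edgeR's likelihood ratio test 6 members were called, which added COL4A5, COL6A3, ITGA8 and ITGAX, and with DESeq2 5.

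The Beta effect differed between F1 and F2 females for 17 of 59 members (28.8%, where 13.8% of all genes did), 15 of them with opposite signs, as 89% of all genes that differed had. COL9A2 (log2 1.58 as F2 minus F1 effect, FDR = 0.0213), COL18A1 (0.96, FDR = 0.0205), ITGA6 (0.66, FDR = 0.00427), LAMA2 (1.28, FDR = 0.0313) and COL4A1 (0.66, FDR = 0.0473) were negative in F1 and positive in F2 females. ITGBL1 (-0.91, FDR = 0.00457) and COL6A6 (-1.81, FDR = 0.0279) were positive in F1 and negative in F2 females. The number was 7 without F2 Control 3 or F2 Beta 4 and 8 or 9 without F1 Control 3, F1 Beta 1 or F1 Control 2, and reached at most 17. It was 10 without F1 Beta 4 or F2 Control 1, and 11 without F1 Beta 3, F2 Control 2 or F2 Control 4. Without F1 Controls 2 and 3 it was 3 (COL8A1, ITGA6 and ITGBL1). The share over all genes was not counted in these fits. Of the 21 members that differed between the F1 sexes and the 17 here, 14 were in both lists, 66.7% of the first and 82.4% of the second, and both comparisons used the same F1 females.

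In F3 females, 0 of 65 members were called with edgeR's quasi-likelihood test, where 1.34% of all genes were (1.07% higher). An unadjusted p under 0.05 was found for 16 members, 5 with positive and 11 with negative values (17.3% of all genes, 9.2% positive and 8.07% negative), and 3 members passed with edgeR's likelihood ratio test (COL16A1, COL3A1 and COL5A1) and 1 with DESeq2 (COL16A1). COL3A1, the chain of type III collagen in vessel walls and meninges, came nearest, at 13.5 to 16.4 CPM in the 4 Controls and 10.9 to 12.9 CPM in the 4 Beta animals (log2 difference -0.36, SE 0.09, FDR = 0.0843). COL16A1, a fibril-associated chain, was at 43.2, 52.0, 54.0 and 45.2 CPM and at 39.5, 37.0, 41.9 and 35.7 CPM (log2 difference -0.33, FDR = 0.0864). These 2 members, COL5A1, ITGA5 and LAMC3 had no overlap, all with every Beta animal below every Control, beside 10.3% of all genes (5.95% above and 4.35% below). Of the fibrillar collagens, 9 of 11 had negative values (median log2 difference -0.27). ITGA8 had a positive value here too (log2 0.55, FDR = 0.211), as COL8A1 did (0.40, FDR = 0.274). Without Control 1, 2 members and 5.22% of all genes were called, and without any other animal 0 members. The response did not pass the test of a difference for any of 57 members between F1 and F3 females (16 with an unadjusted p under 0.05, 2 called with the likelihood ratio test and 2 with DESeq2, 1 called without F1 Control 1, 0.0981% of all genes called) or between F2 and F3 females (12, 2 and 2, and 0.018%). In F3 females the excitatory neuron markers summed to 2720 to 3030 CPM in Controls and 3320 to 3610 CPM in Beta animals, without overlap and with 0 of 10 called. Striatal markers were spread in this table too, with sums of 334 to 1020 CPM in Controls and 208 to 475 CPM in Beta animals (0 of 8 called). Oligodendrocyte markers summed to 4130 to 10100 and 7100 to 9620 CPM (0 of 13 called). The part of these cells in the values of the members was not tested.

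Across the tables, ITGA8 had a positive log2 difference in each, from 1.04 in F1 females through 0.88 and 0.55 in F2 and F3 females to 0.27 in F1 males, but was called in F1 females alone. COL8A1 was positive in the 3 female tables (1.05, 0.25 and 0.40) and negative in F1 males. ITGAV was negative in each table (-0.48, -0.12, -0.22 and -0.05 in F1, F2 and F3 females and F1 males). LAMA2 was the only member called in opposite directions in 2 tables, lower in F1 female and higher in F1 male Beta animals.

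The other genes of the pathway were described through 5 lists of partners, namely the enzymes that process collagen, the other matrix proteins of and around basement membranes, matrix receptors other than integrins, the adaptors and kinases on the inner side of integrins, and matrix proteinases with their inhibitors. In F1 females 21 of 120 partners tested were called, 3 higher and 18 lower in Beta animals, which is 17.5% of them beside 16.5% of all genes (9.21% higher and 7.33% lower). F1 males had 22 of 124 called, 17.7% beside 9.22% of all genes (5.74% higher), all 22 of them higher, with the integrin adaptors giving 9 of 31. By list, the F1 female calls were 3 of 24 for collagen processing, 5 of 26 for matrix partners, 3 of 17 for other receptors, 6 of 31 for adaptors and 4 of 22 for proteinases and inhibitors. In F2 females 0 of 122 were called (21 with an unadjusted p under 0.05, as had 16.1% of all genes, 3 called with the likelihood ratio test and 4 with DESeq2), and in F3 females 0 of 121 (17, beside 17.3% of all genes, 3 and 2). With 1 animal left out, 9 to 30 partners were called in F1 females, with 9 called without Control 3 and 10 without Beta 1. The number was 5 without Controls 2 and 3 (3.52% of all genes called) and 26 without Controls 1 and 4 (15.1%). For F1 males the range with 1 animal left out was 16 to 33. In F2 females 3 partners were called without Beta 2 and 2 without Control 1, and in F3 females 6 without Control 1.

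Partners called in 2 tables numbered 8, and all of them were lower in F1 female and higher in F1 male Beta animals. Of all genes, 249 were called in both F1 tables, and 241 of these (96.8%) had opposite directions, 117 lower in females and 124 higher. PLOD3, which hydroxylates and glycosylates collagen lysines, had log2 differences of -0.36 (FDR = 0.0277) and 0.26 (FDR = 0.0219) in females and males, and BMP1, the procollagen C-proteinase, -0.70 (FDR = 0.00390) and 0.28 (FDR = 0.0223). SPARC, a collagen-binding matrix protein, was at 1925 and 1458 CPM in female Controls and Beta animals and at 1308 and 1506 CPM in males (log2 differences -0.40, FDR = 0.00552, and 0.20, FDR = 0.0484). The small proteoglycan BGN had -0.60 (FDR = 0.0220) and 0.37 (FDR = 0.0224). On the inner side of integrins, PXN, the focal adhesion adaptor paxillin, had -0.49 (FDR = 0.0301) and 0.27 (FDR = 0.0149), and LIMS2, an adaptor of integrin-linked kinase, -0.59 (FDR = 0.0103) and 0.32 (FDR = 0.0202). ADAM17, a membrane proteinase that sheds surface proteins, had -0.49 (FDR = 0.0463) and 0.55 (FDR = 0.00509).

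The level of some members in Control animals depended on the table. Over the 67 members listed in at least 2 tables, 10 had Control means, as CPM of the plain library total, more than 8-fold apart between tables (14.9%, where 2.39% of 11734 symbols did), and 8 of them were highest in F3 females. COL27A1 was at 40.9 ± 11.7 CPM in F3 Controls and at 2.06 ± 1.73, 0.804 ± 0.461 and 2.38 ± 0.429 CPM in F1 female, F2 female and F1 male Controls. COL16A1 was at 49.6 CPM in F3 and at 1.37 to 2.44 CPM in the other Controls, COL9A1 at 55.1 CPM and at 2.86 to 6.30 CPM, and COL11A1 at 74.1 CPM and at 5.85 to 8.58 CPM. COL7A1 (the collagen of anchoring fibrils), COL22A1, COL24A1 and LAMA3 were listed in F3 females and F1 males alone and were 11.3-fold to 20.4-fold higher in F3. In ITGA2B, the platelet integrin chain, Controls were at 42.0 CPM in F1 and 36.6 CPM in F2 females but at 0.705 CPM in F1 males.

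**Figure D5:**
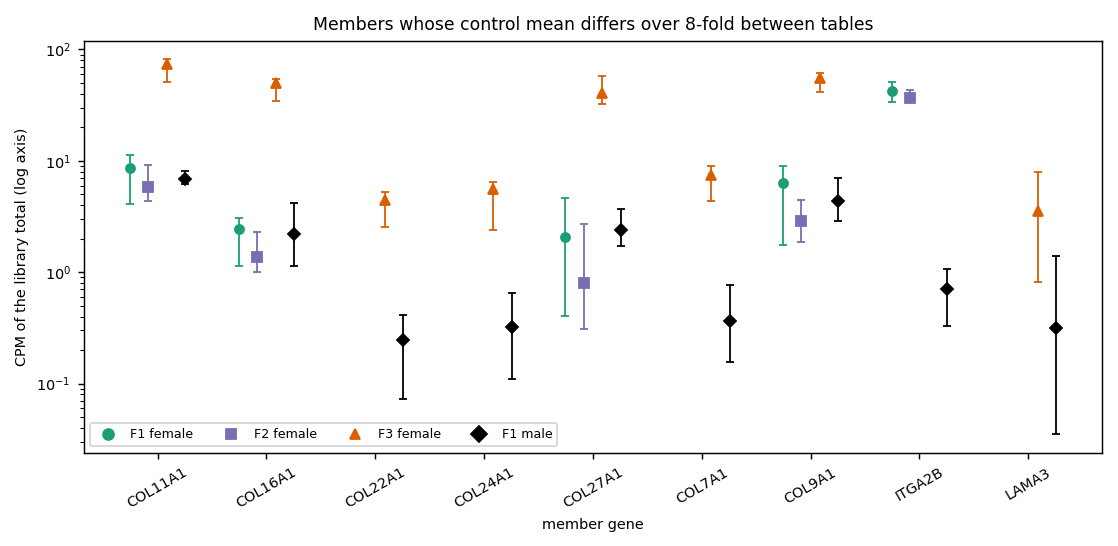
CPM of the plain library total (log axis) of 9 members with Control means more than 8-fold apart between tables, with the Control mean of each table as a symbol and bars from the lowest to the highest animal of that table, Control and Beta together. The F3 females lie above every animal of the other tables for COL11A1, COL16A1, COL22A1, COL24A1, COL27A1, COL7A1 and COL9A1, and ITGA2B lies at 33.8 to 50.8 CPM in F1 females and at 0.326 to 1.06 CPM in F1 males.

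The plot of levels by table shows Control and Beta animals of a table together on each side of these gaps. The members nearest the limit were COL11A1 (12.7-fold) and LAMA3 (11.3-fold) inside it and COL11A2 (5.02-fold) and ITGA2 (4.96-fold) outside. FOXJ1, 1 of the 5 choroid plexus and ependyma markers listed in F3, was at 146 CPM in F3 Controls and 1.65 CPM in F2 Controls. It was not listed in the F1 tables. These markers summed to 158 to 182 CPM in F3 Controls and 20.3 to 30.6 CPM in F2 Controls, so that FOXJ1 alone made up most of the F3 sum. LAMB2 was listed in F2 females (122.5 CPM in Controls) and F1 males (29.1 CPM) alone. COL2A1, COL17A1 and ITGA10 were listed in F3 females alone. Generation or sex and the counting of a table cannot be told apart in these levels.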

How the data were processed

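RNA-seq libraries of 35 animals were compared in 4 tables (F1, F2 and F3 females, F1 males). The authors deposited unnormalized whole-number read counts per gene symbol in each. Per the labels' processing notes, TopHat2 and edgeR were used, with the TopHat2 version, genome build and read counter not given in the sources used here. Each table also holds 6 columns of the authors' own results (fold changes, mean expression, test statistics, p-values and FDR), which were not used.

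The software was R 4.3.3, edgeR 4.0.16 (filterByExpr with minimum count 10 and minimum total count 15, TMM, quasi-likelihood test within each table, Benjamini-Hochberg adjustment over all genes), limma 3.58.1 and DESeq2 1.42.0, applied to the counts. The study's likelihood ratio test was an alternative, since the quasi-likelihood test allows for the uncertainty of the dispersion. Differences in response were tested as interactions for 4 pairs of tables, on counts joined by symbol. Scripts were tested on simulated data. No library was a copy of another. CPM intervals are not given, and low values carry counting error. Whether paralogs or overlapping genes share reads cannot be read from the tables.

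The members, partner lists and marker lists were chosen with earlier results of these data known. The text names members called in any table, the 3 with the largest positive and negative differences per table at an unadjusted p under 0.05, those over 8-fold apart between tables, a fixed set of 15 reference members, and partners called in 2 tables. COL23A1, ITGA5, ITGA7, LAMC3, COL11A2, ITGA2, COL2A1, COL17A1, ITGA10 and LAMB2 were named after their values were seen. The values of 1 member and 1 partner are not reported here, and both stay in the counts.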

Additional observations from a re-analysis of the deposited data

Results flagged for a closer look

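The response to Beta differed between F1 females and F1 males for 21 members in an edgeR interaction test (log2 male minus female effect, FDR under 0.05). The positive differences were 2.56 for COL5A3, 1.66 for LAMA2, 1.58 for COL9A1, 1.56 for COL9A2, 1.19 for COL18A1, 1.03 for COL5A2, 1.02 for COL9A3, 0.792 for COL11A1, 0.77 for ITGA5, 0.725 for ITGB8, 0.577 for ITGA6, 0.547 for LAMC1, 0.544 for ITGB5, 0.485 for ITGB1 and 0.418 for ITGAV. The negative ones were -1.45 for COL6A6, -1.39 for COL8A1, -1.12 for COL23A1, -0.675 for COL25A1, -0.535 for ITGA3 and -0.38 for COL4A3BP.

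Between F1 and F2 females the response differed for 17 members (log2 F2 minus F1 effect). The positive differences were 2.07 for COL5A3, 1.58 for COL9A2, 1.57 for COL9A1, 1.28 for LAMA2, 1.03 for COL11A1, 0.964 for COL18A1, 0.957 for COL9A3, 0.664 for COL4A1, 0.656 for ITGA6, 0.415 for ITGB5, 0.373 for ITGA2B, 0.35 for ITGAV and 0.335 for ITGB1. The negative ones were -1.81 for COL6A6, -0.912 for ITGBL1, -0.799 for COL8A1 and -0.312 for COL4A3BP.

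Single animals lay far from the rest of their group, by the gap to the nearest other animal relative to the range of the group, for 3 of 48 groups checked, where chance alone gives about 1 in 20. These were F1 female Beta 4 for ITGBL1 at 20.0 CPM, F1 female Beta 1 for LAMC1 at 45.0 CPM and F1 male Control 5 for COL18A1 at 58.6 CPM.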

How the results depend on the processing

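No called result changed its direction under the alternatives run. Fitting all 8 groups at once gave 24 members and 50 partners called in F1 females, where it raised the calls over all genes from 16.5% to 30.4%. It gave 0 members in F2 females (0.0913% of all genes), 1 partner in F3 females (3.62%) and 5 members in F1 males (7%). The likelihood ratio test gave 6 members and 3 partners in F2 females, 3 and 3 in F3 females, 35 partners in F1 males and 2 members each for the F1 to F3 and F2 to F3 interactions, and DESeq2 gave 5 and 4, 1 and 2, 36, and 2 and 2. Over all genes these tests called 4.8% and 4.25% in F2 females (0.278% with the quasi-likelihood test), 5.39% and 5.53% in F3 females (1.34%) and 12.2% and 13.8% in F1 males (9.22%). For members they gave 20 and 19 in F1 females (18.6% and 21.5% of all genes) and 10 and 10 in F1 males. Without F1 female Controls 2 and 3, added after seeing the data, 4 members, 5 partners and 3 members of the F1 to F2 interaction were called, with 3.52% of all genes in F1 females. The cause of these shifts was not tested.

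With each animal left out in turn, members called ranged from 6 to 16 in F1 females, 0 to 7 in F2 females, 0 to 2 in F3 females and 7 to 10 in F1 males, and partners from 9 to 30, 0 to 3, 0 to 6 and 16 to 33. Over all genes the calls ranged from 5.42% to 18.7% in F1 females, 0% to 4.36% in F2 females, 0.175% to 5.22% in F3 females and 5.8% to 14% in F1 males. The interactions ranged from 19 to 23 (F1 sexes), 7 to 17 (F1 and F2 females), 0 to 1 (F1 and F3) and 0 to 0 (F2 and F3). For the interactions, shares over all genes were not counted under the alternatives.

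The replicate numbers did not pair the samples (correlations of same-numbered residuals from -0.33 to 0.34). With the replicate number as a block, 1 member was called in F2 females (0.476% of all genes), 10 in F1 females (9.58%), 7 in F1 males (8.68%) and 0 in F3 females (0.587%). In the F1 to F2 interaction 9 were called.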
